A study of Mus musculus with 6 samples.

Results

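The adult nephron is a chain of epithelial segments, each defined by the transport proteins that it makes. The proximal tubule takes back most of the filtered glucose, phosphate, amino acids, water and protein, the loop of Henle and the distal tubule recover salt, calcium and magnesium, and the collecting duct sets the final water and acid content of the urine. Segment genes are generally switched on late, as the nephron forms its tubule, and are silent in the mesenchyme from which the nephron arises. A silent gene can carry methylation of histone H3 lysine 27 (H3K27), a mark laid by Polycomb complexes, whereas methylation of lysine 4 (H3K4) is generally found at active promoters.

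Here 29 such genes were followed through all 6 libraries of the study, among 21937 genes measured. They were chosen by symbol as known genes of mature nephron segments, and all 29 were found, each in 1 row. By segment, 14 belong to the proximal tubule, 8 to the loop of Henle, 3 to the distal tubule and 4 to the collecting duct. Some members, among them Cdh16 and Calb1, are not limited to 1 segment, and each gene was counted in 1 segment only. Cdh16 is made along most of the tubule and Calb1 also in the ureteric bud, and they were placed with the loop and with the distal tubule.

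The study used chromatin immunoprecipitation with sequencing (ChIP-seq), in which fragments pulled down by an antibody against a histone mark are sequenced and counted. It compared mK3 and mK4, a pair of immortalized lines of the E11.5 mouse metanephros of strain CD1, with an H3K4, an H3K27 and an input library (chromatin before any pull-down) from each. The H3K4 antibody is given as Abcam ab8898 and the H3K27 antibody as one from Active Motif, and the labels do not state which degree of methylation either one detects. Neither line is labelled as treated, and each is 1 cultured line with 1 library per antibody, so no value below has a replicate and none has a test. Ranges given after a fold are 95% intervals of read counting alone, narrower than the full error. In such bulk chromatin, a mark in fewer cells and less of it per cell cannot be told apart.

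The values are reads counted over the exons of each gene, so that marks upstream of a gene are not in them. The 6 library totals lay between 311409 and 714011 reads, and a member had between 4 and 180 reads in a library. In the H3K27 libraries, 20 transcription factor genes of neural and endodermal lineages had median log2 ratios over input of 1.45 and 1.23 (mK3 and mK4), and 15 housekeeping genes had -0.49 and -0.65. The catalogue number of the H3K4 antibody is generally known as that of an antibody against H3K9me3, so its target is uncertain and its libraries are named here as labelled. Their median over input was 0.41 and 0.30 at 80 ribosomal protein genes and -0.06 and -0.02 at 359 Zfp zinc finger genes, a family with many known carriers of H3K9me3. The ribosomal protein genes are thinly covered, with medians of 4 and 5 input reads against 15 and 19 at the Zfp genes. At the 15 housekeeping genes the H3K4 median was 0.20 in mK3 and -0.09 in mK4. Above input lay 10 and 5 of the 15, beside 47.2% and 47.1% of all genes. At least 2-fold over input were 2 and 0, beside 4.94% and 3.69% of all genes. In a set this small some of these counts lie near those shares. Of 10 markers of metanephric mesenchyme and progenitors, 0 and 0 had at least 2-fold more H3K4 than input (4.94% and 3.69% of all genes). At least 2-fold more H3K27 was found at 1 and 0 (Six2 in mK3), beside 10.3% and 9.06% of all genes. Counts of 0 or 1 in 10 lie near these shares. For H3K27, 3 and 0 of 8 early nephron, 0 and 2 of 8 stroma, 1 and 1 of 8 ureteric bud and 1 and 1 of 6 endothelial markers passed. The ureteric bud marker that passed in mK3 is Calb1, which is also a member of the segment genes followed here. For H3K4 the same sets had 0 and 1, 0 and 1, 1 and 2 and 0 and 1. RNA was not measured, so these counts do not show which of the markers the lines express.

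The segment genes as a group carried more H3K27 reads than input reads in both lines. H3K27 lay above input at 26 of the 29 genes in mK3, where 49.7% of all genes did, and at 22 in mK4, where 47% did. The 29 log2 ratios over input had the same median, 0.69, in both lines, beside 0.00 over all genes. For these ratios reads were scaled to equal library totals and 5 was added to each count, which pulls the ratios of thinly covered genes towards 0. Marked here means a ratio of at least 2-fold on that scale. By this rule H3K27 marked 9 of the 29 genes in mK3 (background 10.3% of all genes) and 9 in mK4 (background 9.06%).

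The 2 sets of 9 overlapped in part. Slc5a1, Slc22a6, Ggt1, Cldn10 and Slc4a1 were marked in both lines, which is 5 of the 29 members, beside 2.85% of all genes. Within the marked genes these are 5 of each 9, beside 625 of the 2251 genes marked in mK3 and of the 1988 marked in mK4. Slc22a8, Pck1, Sim2 and Calb1 were marked in mK3 alone, and Slc22a12, Hnf4a, Ptger3 and Pvalb in mK4 alone, which makes 13 members marked in at least 1 line (16.5% of all genes) and leaves 16 marked in neither. The difference between the lines was not tested, and several of these genes lay close to the limit. Hnf4a was just inside it in mK4 with a log2 ratio of 1.05, and Slc12a3 just outside it in the same line with 0.97. Counted against exon length in place of input, H3K27 marked 3 members in mK3 (Slc5a1, Cldn10 and Slc4a1) and 2 in mK4 (Ptger3 and Pvalb), with 2.38% and 3.51% of all genes marked. On that basis 24 and 23 of the 29 lay above what an even spread of reads over exon length would give, as did 44.3% and 39.4% of all genes.

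**Figure D1:**
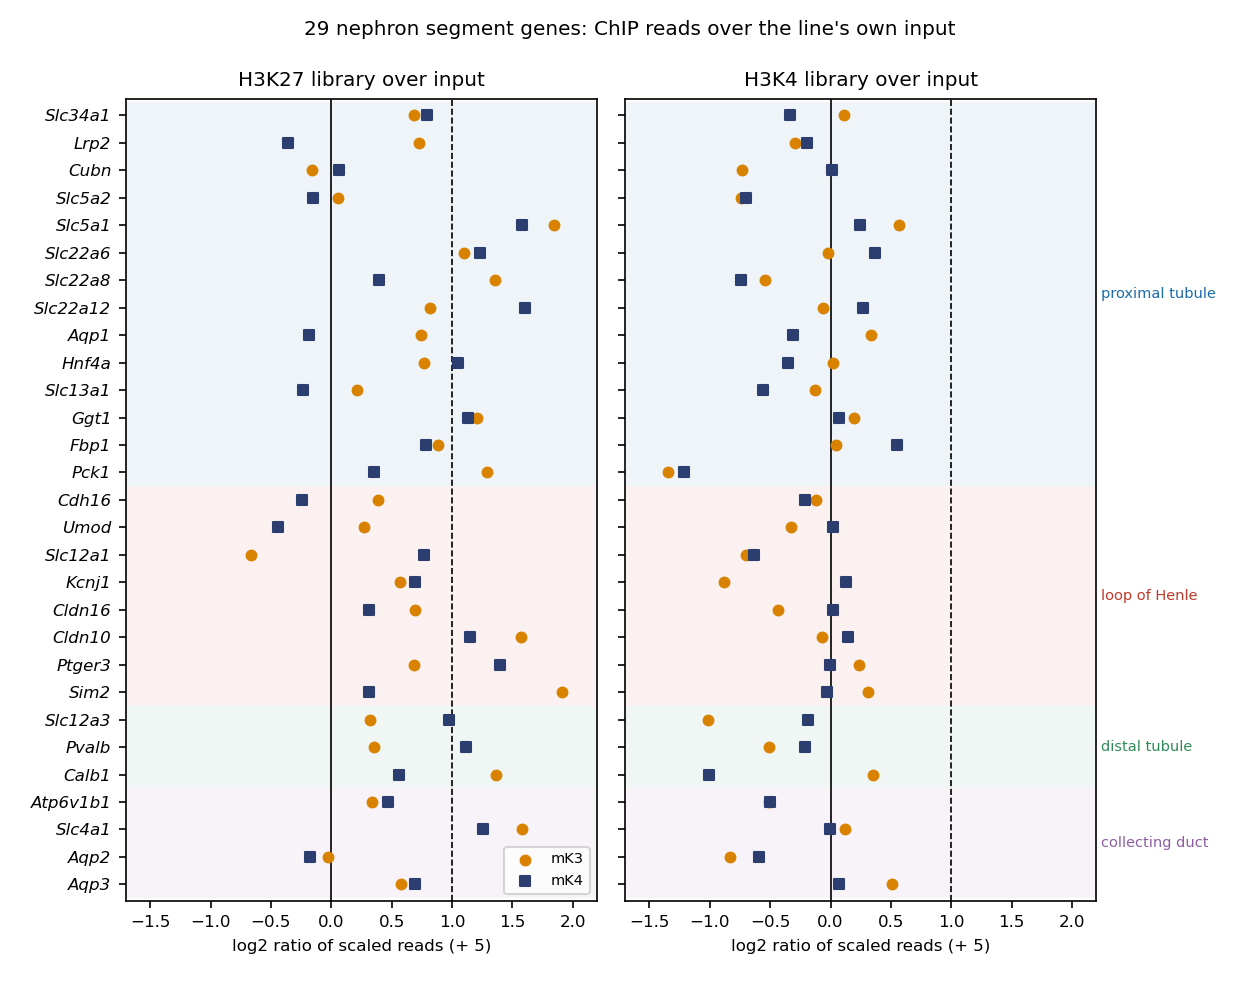
Log2 ratio of ChIP reads to input reads (x axis) for each of the 29 genes (rows, shaded by segment), with mK3 as circles and mK4 as squares. The left panel is the H3K27 library and the right panel the H3K4 library, the solid line marks an equal level and the dashed line 2-fold. In the H3K27 panel 26 circles and 22 squares lie to the right of the solid line and 9 of each lie past the dashed line, and in the H3K4 panel no point reaches the dashed line.

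The H3K4 libraries lay near or below input at most of these genes. No member was marked by H3K4 in mK3 (0 of 29, background 4.94%) or in mK4 (0 of 29, background 3.69%). At backgrounds this low, 0 of 29 is no result about these genes. Of all genes 7.82% were marked by H3K4 in at least 1 line and 0.811% in both. H3K4 lay above input at 11 members in mK3 and 11 in mK4, where 47.2% and 47.1% of all genes did. The medians were -0.12 and -0.19 on the log2 scale, beside 0.00 in each line over all genes. The largest H3K4 ratio over input in mK3 was 0.57 at Slc5a1, and in mK4 it was 0.55 at Fbp1. The smallest were at Pck1 in both lines, -1.35 and -1.21.

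The ratio of H3K27 to H3K4 compares the antibodies without use of the input. H3K27 exceeded H3K4 at all 29 members in mK3, where 52.6% of all genes had more H3K27, and at 26 of 29 in mK4, where 48.6% did. The median log2 ratio of H3K27 to H3K4 was 0.86 in mK3 and 0.97 in mK4. It reached 2-fold at 13 members in mK3 (background 11.8%) and at 14 in mK4 (background 10.4%). The 3 exceptions in mK4 were Lrp2 (-0.17), Umod (-0.47) and Cdh16 (-0.04). At the low end in mK3, Slc12a1 (0.03) and Aqp3 (0.07) had nearly equal levels of both.

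**Figure D2:**
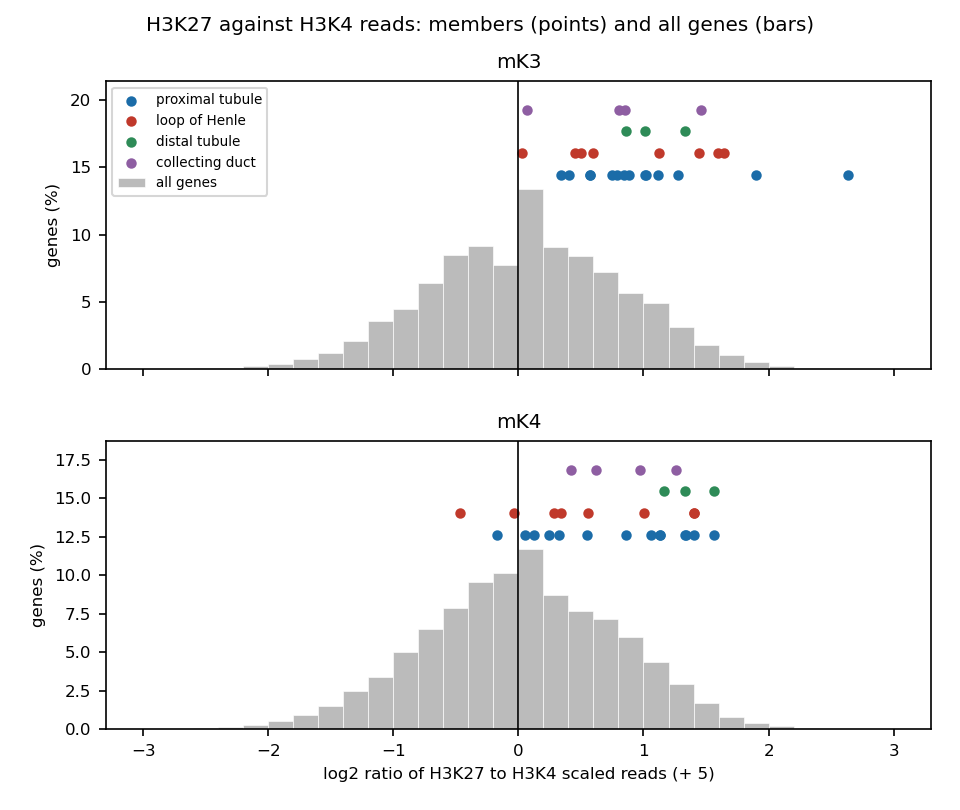
Log2 ratio of H3K27 to H3K4 reads (x axis) in mK3 (top) and mK4 (bottom), with the percentage of all 21937 genes in each bin as bars (y axis) and the 29 members as points coloured by segment and stacked for legibility only. Genes without reads in either library fall in the bin just right of 0. All 29 points lie right of 0 in mK3 and 26 do in mK4.

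Densities per exon length allow the genes to be set against each other. The authors' RPKM (reads per exon kilobase, scaled to the reads of the library) of the members had a median of 24.7 in the mK3 H3K27 library and 23.5 in the mK4 H3K27 library. The median was 11.4 and 11.2 for H3K4 and 12.7 and 13.5 for input. H3K27 density lay above the median gene at 26 members in mK3 and 23 in mK4, where 50% of all genes lie by definition. In H3K27 density 11 members in mK3 and 8 in mK4 stood in the highest 10% of all genes, and in H3K4 or input density none did. The highest H3K27 density in mK3 was at Slc4a1 (RPKM 42.1) and in mK4 at Ptger3 (RPKM 48.3). Umod had the lowest in both, with an RPKM of 10.2 and 5.86.

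Summed by segment, the reads showed H3K27 over input in all 4 segments and both lines. The 14 proximal tubule genes together held 833 of the 593079 H3K27 reads in mK3 and 251 of the 311409 input reads, a share 1.74-fold (1.51 to 2.01) that of input. In mK4 the same genes had a share 1.4-fold (1.23 to 1.6) that of input. Long exons make Lrp2 and Cubn a large part of this sum, and without both genes the shares were 2.3-fold (1.88 to 2.83) and 1.9-fold (1.59 to 2.27). For the 8 genes of the loop of Henle the H3K27 share was 1.52-fold (1.21 to 1.93) that of input in mK3 and 1.65-fold (1.31 to 2.08) in mK4. The 3 distal tubule genes had 1.77-fold (1.22 to 2.61) and 2-fold (1.39 to 2.92), and the 4 collecting duct genes 2.2-fold (1.56 to 3.18) and 1.82-fold (1.29 to 2.59). The counting intervals of the 4 segments overlapped within each line, so no segment was set apart by its H3K27 share.

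The H3K4 shares of the segments lay under input in both lines, though some intervals included 1. They ran from 0.702-fold (0.452 to 1.1) at the distal tubule to 0.919-fold (0.618 to 1.38) at the collecting duct in mK3. In mK4 they ran from 0.642-fold (0.42 to 0.987) at the distal tubule to 0.915-fold (0.722 to 1.17) at the loop of Henle. Input shares of the segments differed little between the lines, with ratios of mK4 to mK3 of 1.14-fold (0.969 to 1.35) for the proximal tubule and 0.883-fold (0.67 to 1.17) for the loop of Henle. Every interval of the 4 input ratios included 1.

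**Figure D3:**
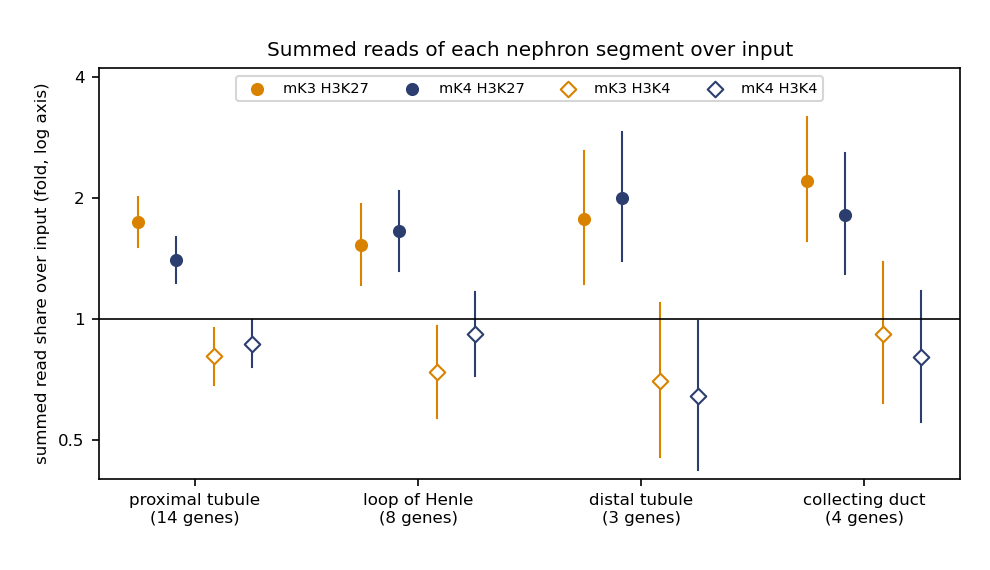
Share of a library's reads that fell on the genes of each nephron segment (x axis), divided by the share in the line's own input (y axis, log axis), for H3K27 (filled circles) and H3K4 (open diamonds) in mK3 and mK4. Bars are 95% counting intervals. All 8 H3K27 points lie above 1, between 1.4 and 2.2, and all 8 H3K4 points lie below 1.

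In the proximal tubule the highest H3K27 ratios over input were at Slc5a1 and Slc22a8 in mK3 and at Slc22a12 and Slc5a1 in mK4. Slc5a1, which encodes the sodium-glucose transporter SGLT1, had 90 and 65 H3K27 reads, 34 and 34 H3K4 reads and 11 and 15 input reads in mK3 and mK4 in that order. Its H3K27 share was 4.3-fold (2.29 to 8.91) that of input in mK3 and 3.48-fold (1.96 to 6.57) in mK4, and its density stood at percentile 97.3 and 94.3 of all genes. Slc5a2, the gene of the related transporter SGLT2 that carries most glucose uptake, lay near input. It had 18 and 13 H3K27 reads, 8 and 11 H3K4 reads and 9 and 12 input reads, and its H3K27 share was 1.05-fold (0.448 to 2.65) and 0.871-fold (0.366 to 2.09) that of input. In each line the interval of Slc5a2 overlapped that of Slc5a1.

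The organic anion transporter genes Slc22a6 (OAT1) and Slc22a8 (OAT3) are direct neighbours on chromosome 19 with no measured gene between them. Slc22a6 had 76 and 59 H3K27 reads, 32 and 45 H3K4 reads and 17 and 18 input reads, and its H3K27 share was 2.35-fold (1.37 to 4.24) that of input in mK3 and 2.63-fold (1.53 to 4.75) in mK4. Slc22a8 had 53 and 44 H3K27 reads, 10 and 26 H3K4 reads and 9 and 26 input reads, with 3.09-fold (1.51 to 7.13) in mK3 and 1.36-fold (0.819 to 2.3) in mK4. Slc22a8 was thus marked in mK3 alone, but its H3K27 share was nearly equal in the lines at 1.02-fold (0.67 to 1.56) mK4 to mK3, while its input share was 2.33-fold (1.06 to 5.64). The urate transporter gene Slc22a12 (URAT1), on the same chromosome with 30 measured genes between it and Slc22a6, had 38 and 36 H3K27 reads, 18 and 17 H3K4 reads and 10 and 7 input reads. Its H3K27 share was 2-fold (0.976 to 4.49) that of input in mK3 and 4.13-fold (1.81 to 11) in mK4, where it was the highest of the 29 on the log2 scale.

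Among the enzyme genes and the transcription factor gene of the proximal tubule, H3K27 marked Ggt1 in both lines, Pck1 in mK3 and Hnf4a in mK4. Pck1, a gluconeogenic enzyme, had 55 and 33 H3K27 reads, 4 and 12 H3K4 reads and 10 and 20 input reads, and was marked in mK3, at 2.89-fold (1.46 to 6.35) input, and not in mK4, at 1.33-fold (0.739 to 2.44). It held the widest gap between the antibodies in mK3, with an H3K27 share 13.8-fold (5.09 to 52.4) that of H3K4. Fbp1, a further gluconeogenic enzyme, had 26 and 12 H3K27 reads, 12 and 14 H3K4 reads and 6 and 4 input reads and passed in neither line. Ggt1, a brush border peptidase of glutathione breakdown, had 34 and 22 H3K27 reads, 14 and 12 H3K4 reads and 6 and 6 input reads and passed in both, at 2.98-fold (1.23 to 8.67) and 2.95-fold (1.16 to 8.88) input. Hnf4a, the transcription factor that drives many proximal tubule genes, had 59 and 72 H3K27 reads, 33 and 36 H3K4 reads and 17 and 26 input reads, which gave 1.82-fold (1.05 to 3.33) and 2.23-fold (1.4 to 3.63) input. Its H3K27 reads outnumbered its H3K4 reads in both lines.

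The members that serve protein uptake were marked by H3K27 in neither line. Lrp2 and Cubn encode megalin and cubilin, the receptors by which the proximal tubule takes up filtered protein. Lrp2 had 180 and 93 H3K27 reads, 86 and 156 H3K4 reads and 56 and 97 input reads, with H3K27 at 1.69-fold (1.24 to 2.32) input in mK3 and 0.77-fold (0.573 to 1.03) in mK4. Cubn had 127 and 103 H3K27 reads, 84 and 147 H3K4 reads and 75 and 79 input reads, with 0.889-fold (0.663 to 1.2) and 1.05-fold (0.774 to 1.42). With the deepest counts of the 29, these are the best measured members, and the intervals of Cubn included 1 in both lines. Of the remaining proximal tubule genes, the phosphate transporter gene Slc34a1 (log2 ratio 0.68 and 0.80) lay above input in both lines. The water channel gene Aqp1 (0.74 and -0.19) and the sulfate transporter gene Slc13a1 (0.21 and -0.24) did so in mK3 alone.

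Promoter sequence was looked at because Polycomb marks in mammals are generally centred on promoters rich in CG dinucleotides. RefSeq windows of 300 bases, 250 before to 50 after the gene start (build GRCm38.p6, whereas the counts were made on mm9), were matched by symbol for 23 of the 29 members. The windows of Slc5a2, Slc13a1, Cdh16, Sim2, Calb1 and Slc4a1 were not used here. The members' windows held a median of 5 CG dinucleotides, against 15 over 14701 genes, and 20 of 23 (87%) held at most 10, against 41.8% of all genes. The first start in the table was used, and 4 members, all of them marked, have others. A later start of Cldn10 holds 27 and one of Pvalb 25. The 10 marked members with a window had a median of 4.5 and the 13 others a median of 5, counted at the first start alone, and the difference was not tested. Printed here are the promoters of the marked members with the fewest CG dinucleotides (Slc22a8 and Slc22a6, the latter tied with Ggt1) and with the most (Slc5a1 and Ptger3), 5′ to 3′ on the gene's strand with each CG in capitals.
Slc22a8 chr19:8592932-8593231 (plus strand): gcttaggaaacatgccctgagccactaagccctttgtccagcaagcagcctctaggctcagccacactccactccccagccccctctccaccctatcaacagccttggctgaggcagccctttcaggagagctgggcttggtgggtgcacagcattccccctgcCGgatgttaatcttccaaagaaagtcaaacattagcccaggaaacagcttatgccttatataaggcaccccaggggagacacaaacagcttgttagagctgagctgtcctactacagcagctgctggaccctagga
Slc22a6 chr19:8617746-8618045 (plus strand): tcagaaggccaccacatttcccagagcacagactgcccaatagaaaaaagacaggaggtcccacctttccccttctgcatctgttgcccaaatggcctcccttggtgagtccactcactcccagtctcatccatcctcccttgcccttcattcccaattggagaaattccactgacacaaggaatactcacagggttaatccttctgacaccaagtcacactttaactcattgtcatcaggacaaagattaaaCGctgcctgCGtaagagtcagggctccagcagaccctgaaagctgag
Slc5a1 chr5:33103969-33104268 (plus strand): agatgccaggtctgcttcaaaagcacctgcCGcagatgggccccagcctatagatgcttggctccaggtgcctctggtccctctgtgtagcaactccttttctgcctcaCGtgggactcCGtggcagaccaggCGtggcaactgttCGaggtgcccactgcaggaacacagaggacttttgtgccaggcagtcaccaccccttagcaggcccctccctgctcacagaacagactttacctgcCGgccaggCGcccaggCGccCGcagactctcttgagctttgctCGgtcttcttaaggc
Ptger3 chr3:157566626-157566925 (plus strand): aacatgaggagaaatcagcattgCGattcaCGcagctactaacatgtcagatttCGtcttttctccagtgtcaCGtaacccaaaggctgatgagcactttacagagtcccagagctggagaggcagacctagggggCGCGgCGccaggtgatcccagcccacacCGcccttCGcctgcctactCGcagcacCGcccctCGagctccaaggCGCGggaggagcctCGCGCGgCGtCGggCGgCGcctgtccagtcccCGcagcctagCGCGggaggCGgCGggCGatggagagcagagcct
The windows of Slc22a8 and Slc22a6, both genes marked by H3K27 over their exons, hold 1 and 2 CG dinucleotides. That of Slc5a1 holds 10 and that of Ptger3 27, the most of the 23 windows.

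In the loop of Henle, Sim2 and Cldn10 had the most H3K27 over input in mK3 and Ptger3 in mK4. Sim2, a transcription factor gene of the basic helix-loop-helix class, had 66 and 32 H3K27 reads, 18 and 36 H3K4 reads and 7 and 20 input reads. Its H3K27 share was 4.95-fold (2.27 to 12.8) that of input in mK3, the highest of all 29 members, and 1.29-fold (0.713 to 2.37) in mK4. Between the lines its H3K27 share was 0.598-fold (0.379 to 0.925) mK4 to mK3 and its input share 2.3-fold (0.935 to 6.44), so both counts moved the ratio the same way. Cldn10, a claudin of paracellular ion passage, had 34 and 25 H3K27 reads, 7 and 15 H3K4 reads and 4 and 7 input reads, with 4.46-fold (1.59 to 17.3) and 2.87-fold (1.21 to 7.86) input. Ptger3, a prostaglandin E2 receptor, had 28 and 47 H3K27 reads, 19 and 22 H3K4 reads and 8 and 12 input reads, with 1.84-fold (0.816 to 4.67) input in mK3 and 3.15-fold (1.64 to 6.52) in mK4.

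The other genes of the loop, Slc12a1, Kcnj1, Cldn16, Umod and Cdh16, were marked by H3K27 in neither line. Slc12a1, the sodium-potassium-chloride cotransporter NKCC2 that loop diuretics block, had 47 and 54 H3K27 reads, 46 and 26 H3K4 reads and 41 and 24 input reads. Its H3K27 share was under input in mK3 at 0.602-fold (0.387 to 0.938) and above it in mK4 at 1.81-fold (1.1 to 3.06). From mK3 to mK4 its H3K27 share was 1.42-fold (0.94 to 2.14) and its input share 0.471-fold (0.272 to 0.799). Kcnj1, the potassium channel ROMK, had 48 and 37 H3K27 reads, 14 and 35 H3K4 reads and 16 and 17 input reads, and Cldn16, which passes magnesium and calcium, had 22 and 15 H3K27 reads, 7 and 17 H3K4 reads and 6 and 9 input reads. Both lay above input for H3K27 in each line without reaching 2-fold. Umod, which encodes uromodulin, the main protein of normal urine, had 15 and 7 H3K27 reads, 8 and 17 H3K4 reads and 6 and 9 input reads, and Cdh16, a cadherin of tubule epithelium, had 39 and 15 H3K27 reads, 26 and 23 H3K4 reads and 15 and 15 input reads. Both had H3K27 above input in mK3 and below it in mK4, and the intervals of both genes included 1 in both lines.

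On the log2 scale, at least 2-fold more H3K27 than H3K4 was found at 2 of the 3 distal tubule genes in mK3 and at all 3 in mK4. Of all genes 11.8% and 10.4% passed this rule, and 3 genes are few to set beside such shares. Slc12a3, the sodium-chloride cotransporter blocked by thiazides, had 49 and 51 H3K27 reads, 16 and 30 H3K4 reads and 20 and 19 input reads. Pvalb, the calcium-binding protein parvalbumin, had 21 and 19 H3K27 reads, 9 and 7 H3K4 reads and 8 and 5 input reads. Calb1, the calcium-binding protein calbindin, had 58 and 37 H3K27 reads, 26 and 14 H3K4 reads and 10 and 19 input reads. H3K27 shares over input were 1.29-fold (0.751 to 2.28) and 2.16-fold (1.25 to 3.87) at Slc12a3, 1.38-fold (0.586 to 3.6) and 3.05-fold (1.1 to 10.5) at Pvalb, and 3.05-fold (1.54 to 6.68) and 1.56-fold (0.877 to 2.88) at Calb1. Calb1 passed in mK3 and Pvalb in mK4, and in mK4 the H3K27 share was 4.03-fold (1.62 to 11.3) that of H3K4 at Pvalb and 3.92-fold (2.07 to 7.85) at Calb1.

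In the collecting duct 1 of the 4 genes was marked by H3K27, in both lines, as were 2.85% of all genes. A count of 1 in 4 is not read as a result about the segment. Slc4a1, the chloride-bicarbonate exchanger of intercalated cells and of red blood cells, had 114 and 63 H3K27 reads, 38 and 35 H3K4 reads and 18 and 19 input reads. With 3.33-fold (2.01 to 5.81) input in mK3 and 2.66-fold (1.57 to 4.71) in mK4 it was that gene. Atp6v1b1, a subunit of the proton pump of intercalated cells, had 28 and 19 H3K27 reads, 13 and 11 H3K4 reads and 11 and 10 input reads and was marked in neither. Aqp2, the vasopressin-regulated water channel of principal cells, had 13 and 16 H3K27 reads, 5 and 16 H3K4 reads and 7 and 15 input reads, and its H3K27 was level with input at 0.975-fold (0.362 to 2.89) and 0.857-fold (0.397 to 1.86). Aqp3, the basolateral water channel of the same cells, had 17 and 15 H3K27 reads, 16 and 12 H3K4 reads and 5 and 6 input reads, with 1.79-fold (0.632 to 6.19) and 2.01-fold (0.737 to 6.32). The intervals of Aqp2, Aqp3 and Atp6v1b1 all included 1.

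Between mK4 and mK3 no segment gene reached 2-fold on the log2 scale, in H3K27, in H3K4 or in input (0 of 29 each). By the same rule, without the need for a mark, 2-fold was reached upwards and downwards by 3.73% and 3.54% of all genes in H3K27. It was reached by 4.51% and 2.99% in H3K4 and by 7.26% and 6.2% in input. Where a mark was needed as well, 0.889% of all genes were higher in mK4 and 0.934% lower in H3K27, with 0.424% and 0.392% for H3K4. Beside these shares, 0 of 29 is not read as a result about these genes, and it was not tested. Leaving size aside, H3K27 was higher in mK4 at 10 members (42.9% of all genes) and lower at 19 (54.3%). H3K4 was higher at 14 (45.8%) and lower at 15 (51%), and input higher at 16 (45.9%) and lower at 13 (49.9%). The median mK4 to mK3 ratio of the members was -0.12 for H3K27, -0.03 for H3K4 and 0.08 for input, beside -0.06, -0.02 and 0.00 over all genes.

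The members closest to 2-fold in H3K27 were Ptger3 (0.92, higher in mK4) and Cdh16 (-0.88, lower in mK4), followed by Sim2 (-0.67), Fbp1 (-0.63) and Lrp2 (-0.63). Without the added 5 reads Ptger3 and Cdh16 were past 2-fold, Ptger3 at 2.07-fold (1.27 to 3.43) mK4 to mK3 and Cdh16 at 2.11-fold (1.14 to 4.12) lower in mK4. Also past it were, in H3K4, Aqp2 (2.67-fold), Pck1 (2.5), Slc22a8 (2.17), Kcnj1 (2.08) and Cldn16 (2.02) upwards and Calb1 (2.23) and Slc12a1 (2.12) downwards. In input they were Slc22a8 (2.33), Sim2 (2.3) and Aqp1 (2.28) upwards and Slc12a1 (2.12) downwards. Intervals of Aqp2, Pck1 and Cldn16 in H3K4 and of Sim2 and Aqp1 in input included 1. Ptger3 lies on chromosome 3, and input around it was higher in mK4. Its 10 neighbours on either side, as a sum, had an input log2 ratio of 0.90, and its own input one of 0.20. With the neighbour ratio subtracted, the H3K27 difference of Ptger3 was 0.02, and with its own input ratio subtracted 0.71. The part of input in it was not tested. Hnf4a, with an H3K27 ratio of 0.55 on chromosome 2, had a neighbour input ratio of 0.76. Lrp2, with 180 and 93 H3K27 reads, had a share 1.57-fold (1.22 to 2.04) lower in mK4, while its H3K4 share was 1.51-fold (1.16 to 1.99) that of mK3. In H3K4 the widest ratios were at Slc12a1 (-0.91), Calb1 (-0.86), Aqp2 (0.83), Kcnj1 (0.82) and Slc22a8 (0.80). At Slc12a1, Aqp2 and Slc22a8 the input moved the same way, by -0.98, 0.59 and 0.99. At Calb1 and Kcnj1 the input moved the opposite way, by 0.49 and -0.19. The part of input in these H3K4 differences was not tested.

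**Figure D4:**
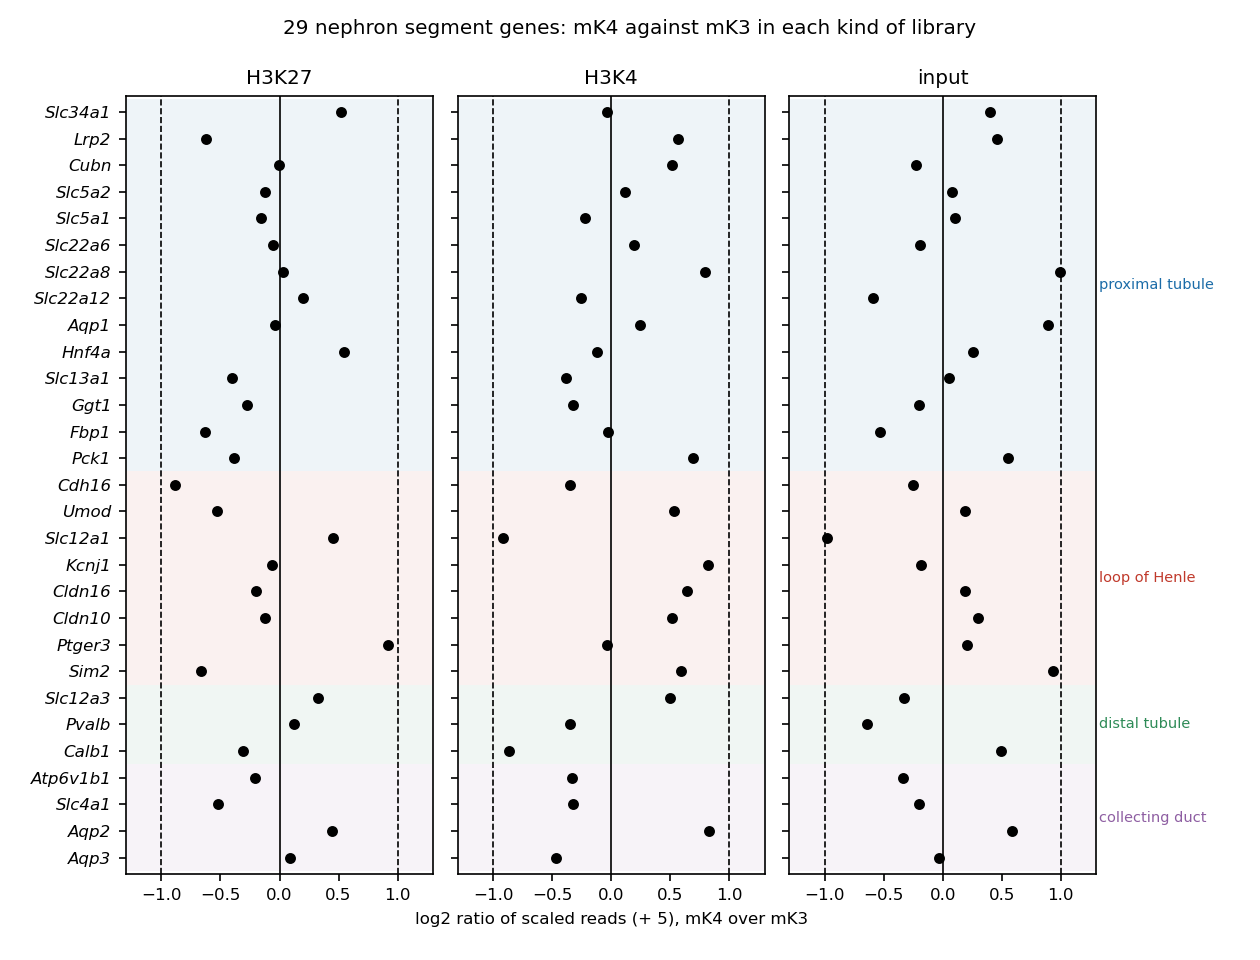
Log2 ratio of mK4 to mK3 reads (x axis) for each of the 29 genes (rows, shaded by segment) in the H3K27, H3K4 and input libraries. The solid line marks equal levels and the dashed lines 2-fold in either direction, which no point passes. Slc12a1 and Slc22a8 lie closest to the dashed lines in the input.

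Other genes of the same segments were counted in the same way, 63 of 64 listed. H3K27 lay above input at 58 and 46 of them (mK3 first here and in what follows), where 49.7% and 47% of all genes did. It marked 20 and 11, beside 10.3% and 9.06% of all genes. H3K4 marked 1 in each line (background 4.94% and 3.69%), Abcc4, an organic anion efflux pump, in mK3 (53 H3K4 and 8 input reads) and Foxi1, the transcription factor of intercalated cells, in mK4 (21 and 3). Other genes high in H3K4 over input were Slc2a2, a glucose transporter (30 and 7), and Fxyd2 (8 and 1) in mK3. In mK4 they were Scnn1g, a subunit of the epithelial sodium channel (21 and 6), and Rhcg, an ammonia transporter (18 and 5), and with 5 added to each scaled count none of these 4 values reached 2-fold. The median H3K27 log2 ratios over input were 0.71 and 0.38. By segment, H3K27 marked 9 and 4 of 25 proximal tubule genes, 1 and 2 of 8 loop genes, 4 and 2 of 14 distal genes and 6 and 3 of 16 collecting duct genes, and in groups this small some of these counts lie near the share over all genes.

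High H3K27 ratios of this list in mK3 were at Pou3f3, a transcription factor of the loop (50 H3K27 and 4 input reads), Fxyd2, a regulator of the sodium pump (23 and 1), Car2, carbonic anhydrase of intercalated cells (28 and 2), and Slc47a1, a cation exporter (47 and 5). In mK4 they were at the ammonia transporter genes Rhbg (64 and 9) and Rhcg (32 and 5) and at Miox, an oxygenase of inositol breakdown (20 and 3). Between the lines Rhbg was higher in mK4 in H3K27, with 21 and 64 reads (3.76-fold, 2.26 to 6.48). Car2 (28 and 6 reads, 3.79-fold lower, 1.54 to 11.2), Slc22a2 (36 and 12 reads, 2.43-fold lower, 1.24 to 5.14) and Amn (19 reads and none) were lower in mK4. Amn encodes the membrane partner of cubilin and Slc22a2 a cation transporter. Car2 had 2 and 10 input reads in mK3 and mK4, Rhbg 8 and 9, Slc22a2 7 and 9 and Amn 2 and 4. The 10 genes on either side of Rhbg had an input log2 ratio of 1.05 between mK4 and mK3, and the part of this in the H3K27 difference of Rhbg was not tested.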

How the data were processed

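Each file holds 1 library, with reads counted over the exons of 22088 gene rows. The authors deposited raw read counts, exon lengths and RPKM values, and per the file headers these are exon counts and exon reads per kilobase. The submitters' processing notes name the build mm9, and the labels name a commercial service with an Illumina pipeline. The aligner, read filters and duplicate handling were not given in the sources used here.

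For 137 symbols with several rows only the one best covered in the 4 ChIP libraries (by mean count) entered, leaving 21937 genes. Counts were scaled to the mean library total and compared as log2 ratios after adding 5. Marked means at least 2-fold over the line's own input, and a difference between lines needed a mark in at least 1 line and 2-fold between them. Fold intervals are exact (Clopper-Pearson, 95%) and use unscaled counts. With 1 library in each group, counts allow no test between conditions. Code was tested on simulated data (Python 3.11.15, numpy 2.4.6, pandas 2.3.3, scipy 1.17.1).

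The members and gene lists were chosen with earlier results of these data known. All members are named, in detail those marked, those 2-fold between the lines and the extremes of each segment. Of other segment genes, the 4 highest over input for each antibody and line are named, except some that are not reported here, and those that differed between the lines were added after their values were seen. Promoters are from RefSeq. Alternatives tried were other pseudocounts, thresholds and backgrounds, a filter on low counts, other scalings and the subtraction of input ratios.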

Additional observations from a re-analysis of the deposited data

How the results depend on the processing

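With 1 library in each group, these values carry counting error only, no library could be left out, and low counts (input medians of 10 and 15 reads per member) limit what single genes can show. No paired analysis was possible because each line has 1 library for each antibody. Of 148 values of the counts and medians under the alternatives, 136 stayed close (counts within 1.5 times, medians within the middle ranks of the members' values). Among these alternatives, the filter on low counts and the summing of rows of a symbol could not change any member value. No member has several rows, and each had at least 10 reads in every pair of libraries compared. Their values are included in the 148 and in the 126 below, so neither tally measures stability under these settings. Medians between the lines, all near 0, changed sign in 3 cases, to 0.04 for H3K4 with each gene's own input ratio subtracted, to 0.02 for H3K27 with the neighbours' input ratio subtracted and to -0.03 for input without the members on chromosomes 3, 7 and 14. With a pseudocount of 1, Ptger3 became the 1 member higher in mK4 in H3K27, and with a pseudocount of 10 H3K27 marked 5 members in mK4 (4.9% of all genes). Against exon length H3K27 marked 3 members in mK3 and 2 in mK4 (2.38% and 3.51% of all genes), and the mK4 H3K4 median was -0.42. At a threshold of 1.5-fold H3K27 marked 17 and 15 members (23% and 21.4% of all genes), with 1 higher in mK4 (Ptger3) and 3 lower (Lrp2, Fbp1 and Sim2). At 3-fold it marked 2 in mK3 (Slc5a1 and Sim2) and 1 in mK4 (Slc22a12), beside 2.25% and 1.66% of all genes. With each gene's own input ratio subtracted, 1 marked member was lower in mK4 (Sim2, -1.60). The cause was not tested for the pseudocount and exon length values. Of 126 values of marked members, 104 were still at least 2-fold and 22 were under it, 13 of them against exon length, 6 with a pseudocount of 10 and 3 against the summed inputs. Past the counting interval went 3, all in mK3 against exon length, Sim2 (0.81), Slc22a8 (0.58) and Slc5a1 (1.14).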
